A study of Mus musculus with 32 samples.

Results

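Intestinal stem cells of mice lacking Ppara were compared, on a control diet, with those of mice that carried a Ppard-fl/fl genotype as well. The comparison takes the 4 PparDA control libraries and the 4 PparA control libraries, 8 of the 32 in the series, chosen by the start of their column names. Both groups are labelled strain C57BL6, control diet and Ppara-null, and PparDA is labelled Ppard-fl/fl in addition. The series design text calls these mice knockouts, but the sources used here do not give how the floxed alleles were recombined, in which cells, the animals' ages or the length of the diet. GFP-high cells that also carried the epithelial surface marker CD326 were sorted from isolated crypts, and polyadenylated RNA was counted by 3' digital gene expression, which reads the 3' end of each transcript. The question the pair of groups addresses is what the Ppard genotype adds in cells that already lack Ppara.

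Ppara and Ppard encode nuclear receptors that bind fatty acids and, together with a retinoid X receptor, switch on genes for taking up, storing and burning fat. Their targets include the carnitine shuttle and the enzymes of mitochondrial and peroxisomal beta-oxidation. In the intestine both receptors are known to take part in the response of stem and progenitor cells to dietary fat. Crypt stem cells are marked by Lgr5, Olfm4 and Ascl2, and their daughters become absorptive enterocytes or the secretory Paneth, goblet, enteroendocrine and tuft cells.

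The 8 libraries held 612672 to 695583 counts each, with 11732 to 12212 genes detected. Levels are given as CPM, counts per 1e+06 of a library's total after scaling between libraries, and the limit that a count of 0 allows, 3 counts, corresponds to 4.28 to 4.94 CPM (counting error only). Library numbers fall into 4 runs of 8 that each hold every group once, and values below are given in the order of runs 1, 2, 3 and 4 (libraries 5, 13, 21 and 29 for PparA, and 7, 15, 23 and 31 for PparDA). Xist, expressed from the inactive X chromosome of females, stood at 616 to 931 CPM in runs 1 and 3 and at 0 in runs 2 and 4, while the Y-linked Ddx3y stood at 0 in runs 1 and 3 and at 14.3 to 37.1 CPM in runs 2 and 4, so each run is of 1 sex in these libraries. Within a run the PparA library is always the fifth and the PparDA library the seventh, so place and genotype cannot be told apart. The PparA libraries of runs 1 and 3 stood apart from those of runs 2 and 4 in a set of genes described further on, and results that rest on them are given with and without them. Epithelial markers were present, with Epcam at 138 and 144 CPM on average in PparA and PparDA. Markers of lymphocytes and other leukocytes summed to 28.6 ± 47.4 and 15.7 ± 10.6 CPM, and all 5 red blood cell markers were at 0 in the 8 libraries.

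Neither targeted gene was abundant enough for its level to test the genotype labels. Ppara stood at 0, 1.54, 1.56 and 0 CPM in the PparA libraries and at 6.03, 1.47, 1.53 and 6.58 CPM in the PparDA libraries, or 0 to 4 counts, all of them in groups labelled Ppara-null. Ppard stood at 7.57, 7.72, 1.56 and 8.56 CPM in PparA and at 4.53, 8.8, 7.63 and 1.65 CPM in PparDA, so its ranges overlapped. Neither gene passed the filter on low counts, and reads from the 3' end check nothing about exons deleted further upstream.

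Of 5872 genes tested, 11 (0.187%) differed between PparDA and PparA on the control diet at an adjusted p under 0.05 in edgeR's quasi-likelihood test with the run as a block. In PparDA 7 were higher (0.119%) and 4 lower (0.0681%). The higher genes included Ppt2, Ly6e, Hpgd and Add3 and the ribosomal protein genes Rpl28 and Rps24. The lower ones were the ribosomal protein gene Rps26, its copy Rps26-ps1, and the pseudogenes Rpl31-ps8 and Gm4294. At an unadjusted p under 0.05 there were 425 genes (7.24%), and in 185 genes (3.15%) the ranges of the 2 groups did not overlap. The median log2 fold change over all genes was -0.009, with 2845 higher and 3019 lower.

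**Figure D1:**
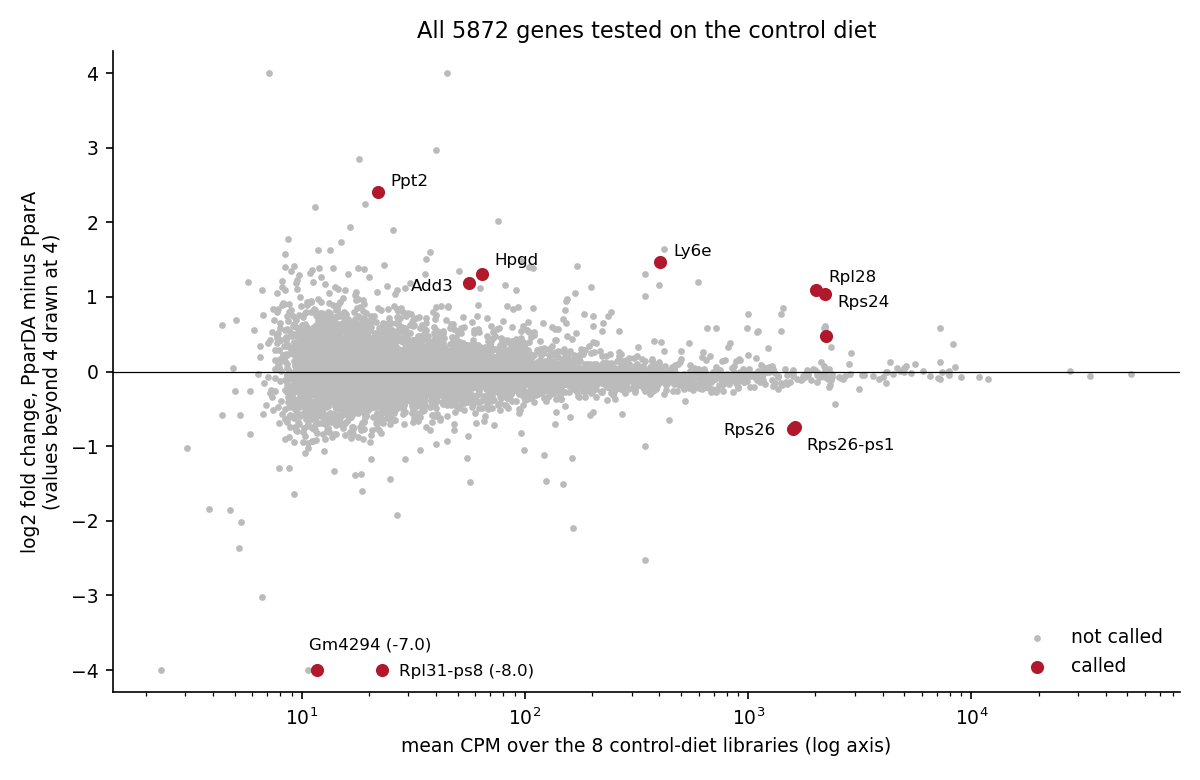
Each point is 1 of the 5872 genes, plotted by mean CPM over the 8 libraries (log axis) and log2 fold change of PparDA minus PparA on the control diet; values beyond 4 are drawn at 4. The 11 called genes are in red, all but 1 of them named, and most other genes lie close to 0.

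Ppt2, a lysosomal palmitoyl-protein thioesterase, showed the largest called rise among genes counted in more than 1 library (ENSMUSG00000015474, chr17:34616662-34628510, 6.38 Mb from Ppard). It stood at 6.06, 6.18, 9.38 and 5.71 CPM in PparA and at 31.7, 33.7, 41.2 and 41.1 CPM in PparDA, which were 4 to 6 counts against 21 to 27. The groups did not overlap, and the rise was 5.31-fold (log2 2.41 ± 0.31 SE, edgeR adjusted p = 5.64e-05). In a fit of all 32 libraries with each group split by pair of runs, Ppt2 was the 1 gene that passed in both pairs. Its log2 difference was 2.22 in runs 1 and 3 and 2.62 in runs 2 and 4. With only the libraries of 1 pair fitted, Ly6e passed in both pairs too.

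Ly6e, a GPI-anchored surface protein induced by interferon, rose 2.76-fold (ENSMUSG00000022587, chr15:74955051-74959905, 10.8 Mb from Ppara). Its level was 121, 270, 142 and 335 CPM in PparA and 377, 596, 667 and 727 CPM in PparDA. The lowest PparDA library lay just above the highest PparA library, and within PparA the libraries of runs 1 and 3 were the low ones. The log2 difference was 1.46 ± 0.26 (edgeR adjusted p = 0.00373). Without PparA libraries 5 and 21 it was 1.047 and Ly6e was not called (adjusted p = 0.454), nor was it without run 3.

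Hpgd, the 15-hydroxyprostaglandin dehydrogenase that inactivates prostaglandins, rose 2.48-fold (ENSMUSG00000031613, chr8:56294585-56321043). It stood at 30.3, 46.3, 32.8 and 34.2 CPM in PparA and at 51.3, 63.1, 102 and 153 CPM in PparDA. The groups did not overlap, but the PparDA libraries spread widely, with runs 3 and 4 highest. The log2 difference was 1.31 ± 0.26 (edgeR adjusted p = 0.013), and it missed the threshold when library 5, 21, 23, 29 or 31 was left out, with adjusted p up to 0.201. Without libraries 5 and 21 together Hpgd was at 1.163 (adjusted p = 0.463 in edgeR).

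Add3, gamma-adducin of the spectrin-actin membrane skeleton, rose 2.28-fold (ENSMUSG00000025026, chr19:53140443-53247399). PparA libraries held 27.3, 41.7, 29.7 and 37.1 CPM and PparDA libraries 95, 57.2, 88.6 and 74.1 CPM. The difference was wider in runs 1 and 3 (log2 1.69 ± 0.24) than in runs 2 and 4 (0.73 ± 0.24), a difference that was not called. Over the 4 runs it was 1.19 ± 0.18 (edgeR adjusted p = 0.000502). Add3 was not called without libraries 5 and 21 (log2 0.827, adjusted p = 0.27), without run 1, in runs 2 and 4 alone (0.731, adjusted p = 0.809), or in the 8 libraries alone with the block (adjusted p = 0.153) or without it (0.112).

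**Figure D2:**
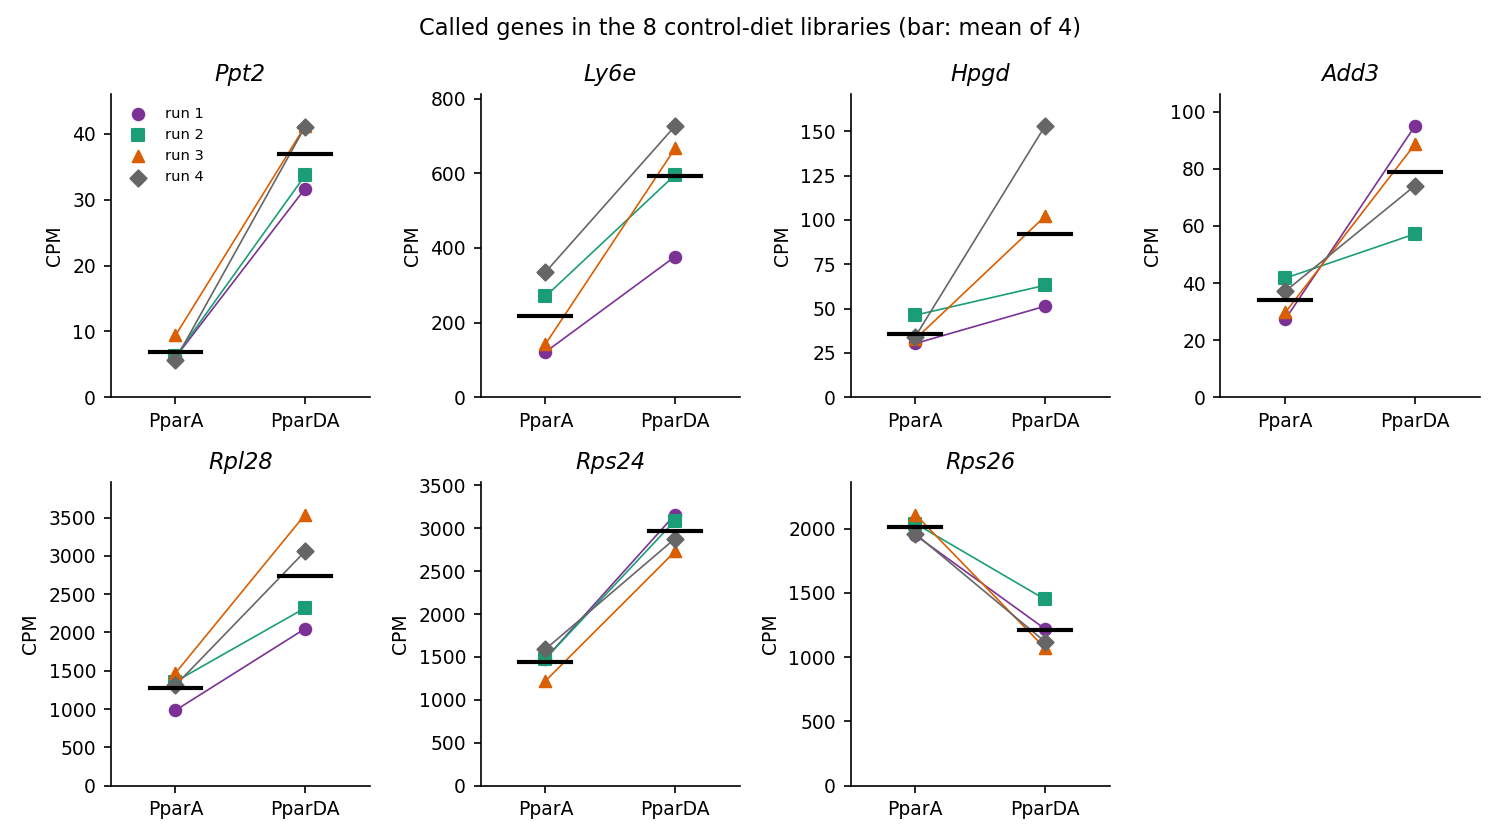
CPM of 7 called genes in each PparA and PparDA control library; lines join libraries of the same run and bars are means of 4. In every panel the 2 groups do not overlap, with PparDA higher in 6 genes and lower in Rps26.

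Promoter windows of Ppt2 and Add3 are printed because these are the called genes outside the ribosome with a window in the table and the smallest p. They run from 250 bases before to 50 after the gene's start in RefSeq (GRCm38.p6, the assembly called mm10). Ppt2 is chr17:34628230-34628529 on the minus strand and Add3 is chr19:53140193-53140492 on the plus strand, both read 5′ to 3′ along the gene. Capitals mark AGGTCA, the core of the element bound by PPARs with a retinoid X receptor, or TGACCT, which is AGGTCA on the other strand.
Ppt2: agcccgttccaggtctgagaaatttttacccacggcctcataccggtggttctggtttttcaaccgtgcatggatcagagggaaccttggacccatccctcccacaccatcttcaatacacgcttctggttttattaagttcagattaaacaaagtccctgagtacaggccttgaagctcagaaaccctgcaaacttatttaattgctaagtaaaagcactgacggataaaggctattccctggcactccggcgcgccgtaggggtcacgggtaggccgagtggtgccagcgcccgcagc
Add3: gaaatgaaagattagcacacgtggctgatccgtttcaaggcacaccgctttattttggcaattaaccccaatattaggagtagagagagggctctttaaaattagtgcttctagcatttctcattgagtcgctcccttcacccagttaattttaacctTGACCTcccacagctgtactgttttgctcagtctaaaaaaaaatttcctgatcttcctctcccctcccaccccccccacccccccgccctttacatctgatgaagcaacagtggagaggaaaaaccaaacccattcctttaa
Add3 holds 1 match, which begins at base -92, and Ppt2 holds none. Among the 6 called genes with a window, 1 held AGGTCA on either strand, against 13.2% of 4532 tested genes and 14.9% of all 20431 windows. None of the 6 held the direct repeat of PPAR elements, AGGTCA, any 1 base and AGGTCA again on either strand, found in 0.0587% of all windows, and none of 13 windows of canonical PPAR targets did either, while 4 of those 13 held AGGTCA. Matches to the single core and to the repeat can overlap.

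Ribosomal protein genes gave 4 of the 11 calls, 3 higher and 1 lower, among 75 tested, where 0.187% of all genes tested were called. Rpl28, of the large subunit, rose 2.13-fold (ENSMUSG00000030432, chr7:4792874-4795066), from 984, 1360, 1470 and 1310 CPM in PparA to 2050, 2320, 3540 and 3060 CPM in PparDA. Rps24, of the small subunit, rose 2.05-fold (ENSMUSG00000025290, chr14:24487125-24496959), from 1480, 1480, 1220 and 1590 CPM to 3160, 3090, 2730 and 2880 CPM. Both were separated in every run, with a log2 difference of 1.09 ± 0.13 for Rpl28 (edgeR adjusted p = 2.6e-05) and 1.04 ± 0.16 for Rps24 (adjusted p = 0.000409). Without PparA libraries 5 and 21 Rps24 was at 0.97 and just missed the threshold (edgeR adjusted p = 0.0626), and Rpl28 was still called (adjusted p = 0.00524).

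Rps26, also of the small subunit (ENSMUSG00000025362, chr10:128624534-128626747), went the other way, from 1950, 2040, 2110 and 1960 CPM to 1220, 1450, 1070 and 1120 CPM (log2 -0.74 ± 0.11, edgeR adjusted p = 0.000258). Its near-identical copy Rps26-ps1 had almost the same levels, 2010 ± 170 against 1180 ± 181 CPM (SD, n = 4), with adjusted p = 0.000582 (0.0626 without PparA libraries 5 and 21). Reads of Rps26 and Rps26-ps1 can be split between them by the counting, so both are uncertain as separate genes, and the same holds for other ribosomal protein genes with processed copies.

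The 71 other ribosomal protein genes tested were not called. The 75 had a median log2 fold change of -0.03, with 26 higher and 49 lower, close to the median of all genes. Rps4x, the X-linked small-subunit gene, stood at 7230 ± 588 CPM in PparA and 9310 ± 585 CPM in PparDA with no overlap, but was not called (log2 0.37 ± 0.16, edgeR adjusted p = 0.61). WT control and WT high-fat libraries take the first and second places of a run and swap them in run 4, so place is told apart from diet only by the 2 WT libraries of that run. Place 2 against place 1 called 7 genes (0.119%), all higher at place 2, and these calls rest on that single run. They include Rps24 (log2 0.71 ± 0.12, adjusted p = 0.00176) and Rps4x (0.79 ± 0.12, adjusted p = 0.000517). The part of place in the PparDA result was not tested.

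Both remaining calls, Rpl31-ps8 and Gm4294, rest on a single library. All 121 counts of Rpl31-ps8 and all 62 of Gm4294 in these 8 libraries came from library 5, the PparA library of run 1, where they reached 183 and 93.9 CPM, and the other 7 libraries held none. Fitted fold changes of such genes depend on the prior count and set no bound. In the whole series, Rpl31-ps8 was counted in 6 libraries (129 to 191 CPM) and Gm4294 in 4 (93.2 to 432 CPM), all of them in run 1.

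Across the 8 groups the called genes fell into different patterns. Ppt2 was also high in PparD on the control diet (50.1 ± 11.8 CPM), while the means of the other groups, PparDA on high-fat diet included (8.59 ± 4.81 CPM), lay below 10 CPM. Rps24 was highest in PparD control libraries (7160 ± 716 CPM), with PparDA control next. Add3 and Hpgd were highest in PparDA control libraries, where Add3 averaged 78.7 ± 16.8 CPM against at most 46.5 ± 9.55 CPM in another group. Ly6e was lowest in PparA on both diets (217 ± 103 and 245 ± 116 CPM) and highest in PparDA on both (592 ± 153 and 544 ± 141 CPM). Rps26 was highest in PparA on both diets (2020 ± 75.7 and 2520 ± 173 CPM). Rpl28 was lowest of all groups in PparA control libraries but highest in PparA high-fat libraries (6730 ± 2160 CPM).

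**Figure D3:**
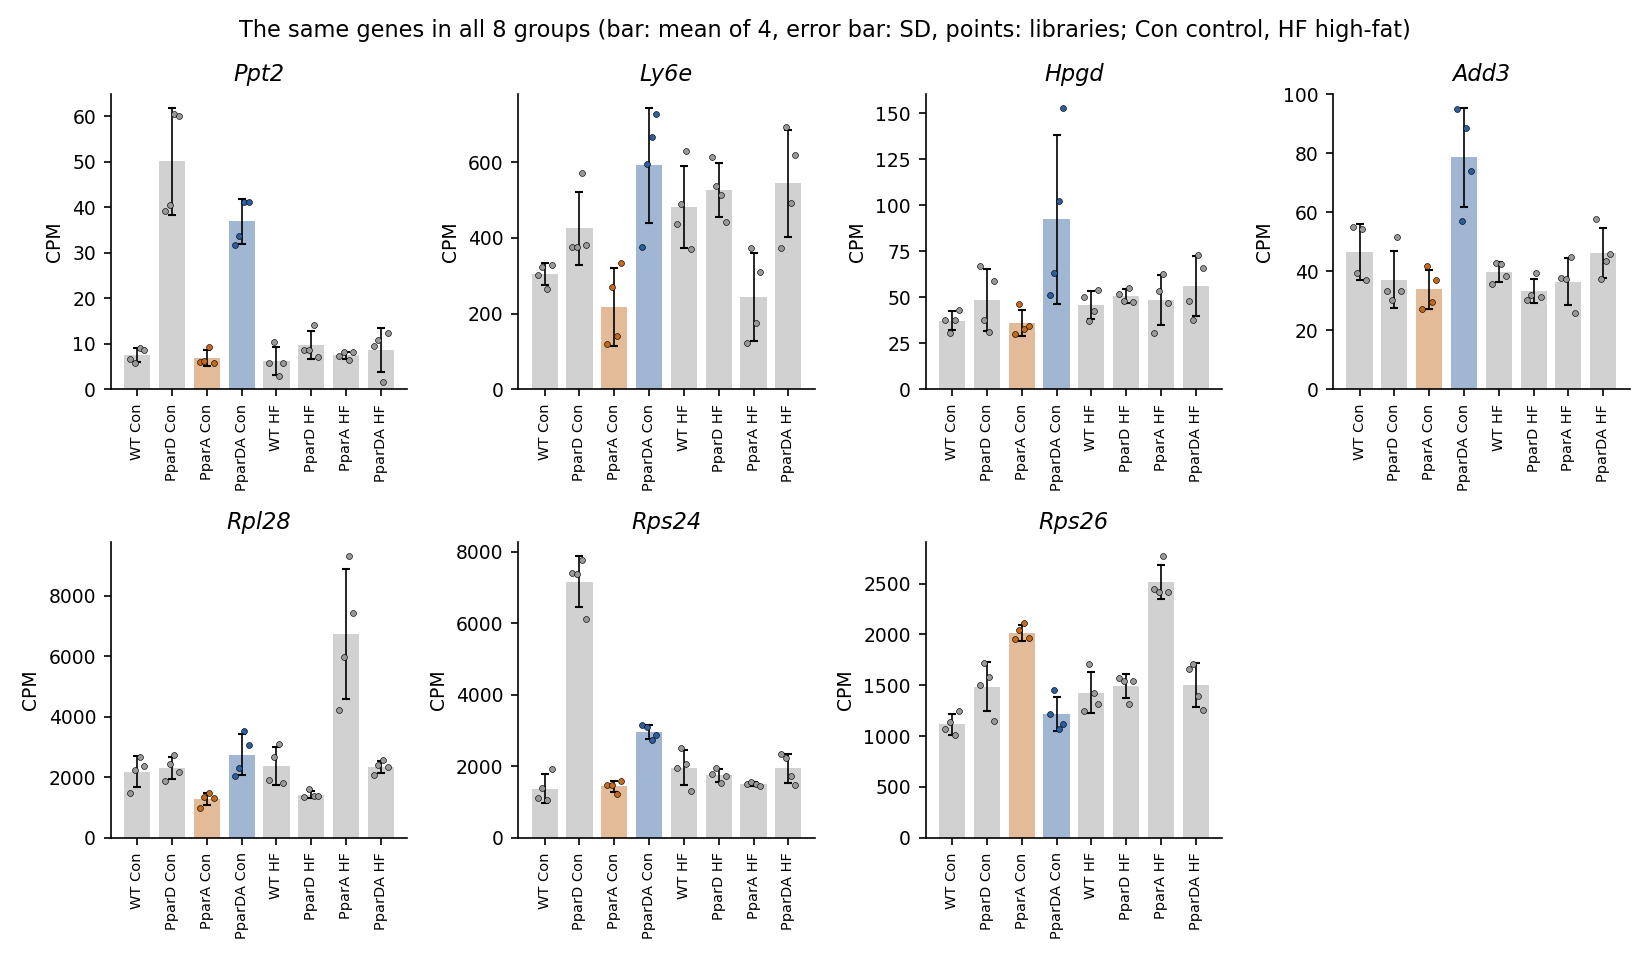
The same 7 genes in all 8 groups, with 4 libraries each as points, bars for the mean and error bars for the SD; PparA control is orange and PparDA control blue. Ppt2 is high in both control groups that carry Ppard-fl/fl, whereas Rpl28 is highest in PparA on high-fat diet.

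On the high-fat diet the same genotype contrast, in libraries of its own, called 146 genes (2.49%), of which 7 were among the 11 called on the control diet. Without the run as a block that count was 16. Not all of the 7 kept their direction. Rpl31-ps8 turned from lower to higher (log2 8.095 on high-fat diet), and both it and Gm4294 were counted in run 1 alone. Rps26-ps1, also among the 7, can share reads with Rps26. Ly6e was higher there as well (log2 1.18 ± 0.26, edgeR adjusted p = 0.0104) and Rps26 lower (-0.75 ± 0.11, adjusted p = 0.000102). Rpl28 was lower in PparDA on high-fat diet (log2 -1.48), the opposite of the control diet. The difference of the contrast between diets was called for 20 genes (0.341%; 8 without the block), including Rpl28 (-2.56 ± 0.19, adjusted p = 2.51e-10) and Rps4x (-1.98 ± 0.23, adjusted p = 4.56e-06). For Ppt2 it was -2.22 ± 0.53 and just missed the threshold (adjusted p = 0.0601).

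With Ppara intact, PparD was compared with WT on the control diet to see the Ppard-fl/fl genotype alone, and 22 genes (0.375%; 12 without the block) were called, 4 of them among the 11. Ppt2 (log2 2.70 ± 0.29, edgeR adjusted p = 7.25e-07) and Rps24 (2.38 ± 0.16, adjusted p = 5.2e-11) were higher there too. Gm4294, another of the 4, rests on a single library there, with all its counts in library 1, a WT library. The difference between the Ppara-null and the Ppara-intact contrast was called for 7 genes (0.119%; 4 without the block). It was positive for Add3 (1.51 ± 0.26, adjusted p = 0.00492) and Rpl28 (1.001 ± 0.18, adjusted p = 0.00876). It was negative for Rps24 (-1.34 ± 0.22, adjusted p = 0.00243) and Rps26 (-1.14 ± 0.15, adjusted p = 0.000137). For Ppt2 the difference was -0.29 ± 0.48 and was not called (adjusted p = 0.946).

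None of 17 tested canonical PPAR targets was called, where 0.187% of all genes were. Their median log2 fold change was 0.30, with 15 higher and 2 lower in PparDA, against -0.009 over all genes. The median of the same list was -0.10 in PparDA against PparA on high-fat diet. In PparD against WT on the control diet it was 0.465. At an unadjusted p under 0.05, 5 of the 17 were higher, among them Acadl, Slc25a20, Angptl4 and Acaa2. Over all 5872 genes tested, 242 were higher at that level. Acadl, the long-chain acyl-CoA dehydrogenase, stood at 10.6, 3.09, 6.25 and 5.71 CPM in PparA and 15.1, 17.6, 24.4 and 24.7 CPM in PparDA (log2 1.63 ± 0.43, edgeR adjusted p = 0.178). Those groups did not overlap, but the PparA values are 2 to 7 counts.

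Library 5, the PparA library of run 1, stood high in Angptl4, an inhibitor of lipoprotein lipase (13.6 CPM against 1.43 to 3.13 in the other 3), and in Cpt1a (42.4 against 15.7 to 20.1), the gate of fatty acid entry into mitochondria. In PparDA, Angptl4 was at 9.05, 7.34, 12.2 and 23 CPM, so library 5 lay within that range (log2 1.35 ± 0.63, edgeR adjusted p = 0.658). In PparD against WT, with other libraries, Acaa2, the mitochondrial thiolase, was called (0.80 ± 0.16, adjusted p = 0.00896).

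In mitochondrial fatty acid oxidation 18 of 22 tested genes were higher and 4 lower, the median log2 fold change was 0.12, and none was called. The median of this list was -0.14 on high-fat diet and 0.42 in PparD against WT on the control diet. Of the 22 genes, 4 had an unadjusted p under 0.05, all higher: Acadl, the carnitine carrier Slc25a20 (19.8 to 35.5 CPM), Cpt2 (15.1 to 23.3 CPM) and Acaa2 (285 ± 65.9 to 358 ± 21.2 CPM). Among all genes tested, 7.24% had such a p in either direction. Cpt1a was at 23.8 ± 12.5 and 24 ± 4.18 CPM (log2 0.03 ± 0.38), and Acadvl, the very-long-chain enzyme, at 77.6 ± 17.8 and 71.4 ± 10.7 CPM. Hadha, of the trifunctional protein, stood at 110 ± 41.3 and 134 ± 27 CPM (log2 0.29 ± 0.17). Among 12 peroxisomal genes 7 were higher and 5 lower, with a median of 0.06 and Acot8 at the smallest p (7.85 ± 2.76 to 12.3 ± 3.22 CPM, adjusted p = 0.793).

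Lipid handling beyond oxidation held no calls either. Fabp1, the liver-type fatty acid carrier of absorptive cells, varied more among PparA libraries (253, 1170, 31.3 and 498 CPM) than in PparDA (320, 254, 443 and 569 CPM). Plin2, which coats lipid droplets, was at 143 ± 19.2 and 131 ± 24.2 CPM, and Pdk4 at 0 or 1 count in every library. All 9 tested genes of fatty acid synthesis were lower in PparDA, with a median of -0.23, and 13 of 15 genes of cholesterol synthesis were lower, with a median of -0.22. None of these had an unadjusted p under 0.05, with Msmo1 at 57.1 ± 18.5 and 39.8 ± 12.7 CPM and Fads2 at 24 ± 7.48 and 17.5 ± 4.01 CPM. On high-fat diet the medians for fatty acid and cholesterol synthesis were 0.18 and 0.34. In PparD against WT on the control diet they were 0.16 and 0.23. Of 15 genes of lipid uptake and lipoprotein assembly, 4 were higher and 11 lower, with a median of 0.47 in runs 1 and 3 and of -0.90 in runs 2 and 4.

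**Figure D4:**
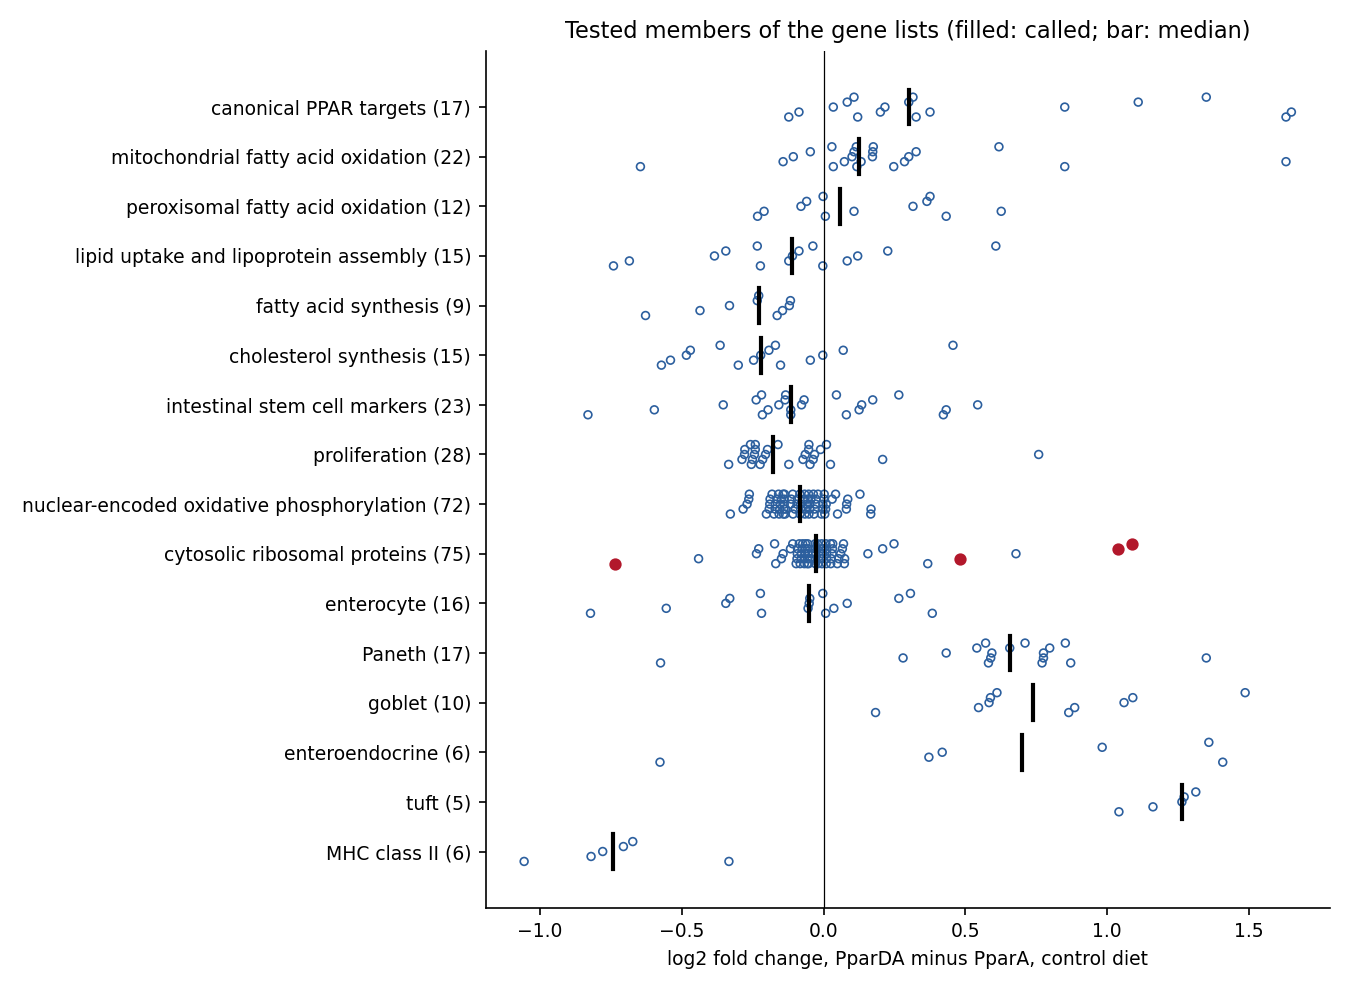
Log2 fold change of PparDA minus PparA for each tested member of 16 gene lists (number tested in brackets), with called members filled and the median as a bar. Called members appear in the ribosomal list, and the secretory cell lists lie mostly to the right of 0.

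Stem cell markers held no calls. Lgr5, the Wnt co-receptor that marks these cells, was at 49 ± 12.5 CPM in PparA and 44.2 ± 6.12 CPM in PparDA, Olfm4 at 11100 ± 1400 and 10600 ± 1280 CPM, and the transcription factor Ascl2 at 67.4 ± 14.2 and 58.7 ± 14.3 CPM. Of 23 stem cell markers 9 were higher and 14 lower, with a median of -0.12. Aqp4, a water channel, was the member with the smallest p (78.2 ± 11.4 to 114 ± 22.2 CPM, log2 0.54 ± 0.15, edgeR adjusted p = 0.217), and its groups did not overlap. Proliferation genes were lower in 24 of 28, with a median of -0.18 (-0.25 in runs 1 and 3, -0.06 in runs 2 and 4). In 3 of them the groups did not overlap, as in 3.15% of all genes tested. Of these, Tyms (398 ± 34.1 to 333 ± 12.6 CPM) and Cdk1 (217 ± 12.6 to 178 ± 19.5 CPM) were lower. Ube2c, the ubiquitin-conjugating enzyme of mitotic exit, was higher (29.7 ± 5.93 to 49.8 ± 2.07 CPM, edgeR adjusted p = 0.451). Of 72 nuclear-encoded oxidative phosphorylation genes 58 were lower, with a median of -0.08 and Ndufb4 at the smallest p (841 ± 125 to 697 ± 41.4 CPM, adjusted p = 0.495).

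Markers of secretory cells were mostly higher in PparDA, without a call in any of the lists over the 32 libraries. Over all 5872 genes tested, 242 were higher at an unadjusted p under 0.05. All 5 tested tuft cell genes were higher, with a median of 1.26, and each had an unadjusted p under 0.05. They include Alox5ap and Ltc4s of leukotriene synthesis, Rgs13 and Lrmp. Alox5ap stood at 22.7, 15.4, 12.5 and 30 CPM in PparA and at 27.2, 54.3, 62.6 and 59.2 CPM in PparDA (log2 1.31 ± 0.37, edgeR adjusted p = 0.268). The summed tuft markers were 183, 142, 54.7 and 156 CPM against 146, 329, 415 and 280 CPM, so run 1 went the other way. In bulk RNA, a change in the number of such cells and a change in RNA per cell cannot be told apart.

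All 10 goblet genes were higher, with a median of 0.74, among them Clca1 (34.8, 86.5, 6.25 and 68.5 to 40.7, 229, 125 and 173 CPM, adjusted p = 0.495), Muc2 and Tff3. Goblet markers summed to 3710 ± 1210 and 5770 ± 1870 CPM and overlapped between groups. By run the goblet sums were 4950, 4560, 2590 and 2760 CPM against 3050, 6400, 6310 and 7310 CPM, so run 1 went the other way. Of 17 Paneth cell genes 16 were higher, with a median of 0.66 and sums of 5840, 16300, 3120 and 18600 CPM against 14100, 11700, 4160 and 43900 CPM. The Paneth sum went the other way in run 2. Lyz1, the Paneth lysozyme, averaged 795 and 1430 CPM. Reg4, a lectin of enteroendocrine and deep crypt secretory cells, had the smallest p of its list (46.9, 60.2, 29.7 and 89.9 to 89, 129, 140 and 252 CPM, log2 1.41 ± 0.39, adjusted p = 0.243), and 5 of 6 enteroendocrine genes were higher. Enteroendocrine markers summed to 238, 232, 86 and 124 CPM against 173, 283, 321 and 347 CPM, so run 1 went the other way. Reg4 was called in the 8 libraries alone with the block (edgeR adjusted p = 0.0223) and in runs 1 and 3 alone (adjusted p = 0.0395). With no filter on low counts Reg4, Clca1, Alox5ap and Mptx1 were called. That setting called 128 of 21299 genes and was not particular to secretory markers. It also called Acadl and Rps4x as higher and H2-DMa as lower. Mptx1, a Paneth cell pentraxin, was at 0, 54.1, 0 and 61.3 CPM in PparA and 55.8, 89.5, 87 and 55.9 CPM in PparDA (adjusted p = 0.724). It was called in runs 1 and 3 alone (adjusted p = 0.0323) and without libraries 13 and 29 (adjusted p = 0.0371), where both PparA libraries held 0 counts. The same lists had medians of 0.17 (tuft), -0.09 (goblet) and -0.13 (Paneth) in PparDA against PparA on high-fat diet, and of -0.30, -0.72 and -0.48 in PparD against WT.

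Antigen presentation genes of MHC class II were lower in 6 of 6, with a median of -0.74 and no call, but the median turned with the pair of runs, at -1.09 in runs 1 and 3 and 0.66 in runs 2 and 4. Their summed level followed the pair of runs within PparA, at 869, 139, 943 and 94.2 CPM, and stood at 258, 69, 534 and 308 CPM in PparDA. H2-DMa, which loads peptides, was at 124 ± 100 and 68.6 ± 47.3 CPM (adjusted p = 0.814). The enterocyte markers were 6 higher and 10 lower with a median of -0.05, but their sum varied among PparA libraries (1540, 4690, 1740 and 2900 CPM) and little among PparDA libraries (2350, 2840, 2460 and 2400 CPM). Median log2 fold changes of the enterocyte list were 1.43 in runs 1 and 3 and -0.57 in runs 2 and 4.

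The contrast differed between the pairs of runs. In the fit of all 32 libraries, 45 genes (0.766%) were called in runs 1 and 3. In runs 2 and 4 only Ppt2 was called (0.017%), with 298 genes at an unadjusted p under 0.05 there. The difference between the pairs was itself called for 11 genes (0.187%), all with a smaller or lower contrast in runs 2 and 4. Genes in the following paragraphs were chosen from these calls after their values were seen.

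Fgf1, a fibroblast growth factor, was at 4.54 and 7.82 CPM in the PparA libraries of runs 1 and 3, at 97.3 and 167 CPM in those of runs 2 and 4, and at 140, 136, 134 and 181 CPM in PparDA. Thus PparA of runs 1 and 3 lay within the range of the 16 WT and PparD libraries (1.42 to 8.57 CPM), while PparA of runs 2 and 4 lay near PparDA. Itch, a ubiquitin ligase, had the same form, at 77.2 and 61 CPM against 675 and 298 CPM, with 367 to 695 CPM in PparDA control libraries. Rep15, a Rab15 effector, was at 84.8 and 68.8 CPM against 1090 and 448 CPM, with 499 to 1040 CPM in PparDA. AA465934, Tmem69, Phgr1 and Ccdc62 were likewise low in PparA of runs 1 and 3, and their log2 fold changes there were 4.77, 1.86, 1.94 and 1.89.

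Others, called in runs 1 and 3, went the opposite way. The difference between the pairs was not called for Ldb3, Pnp2 or Slc7a7 (edgeR adjusted p = 0.833, 0.817 and 0.142). Ldb3, a Z-disc protein of muscle, was at 45.4 and 32.8 CPM in PparA of runs 1 and 3, at 3.09 and 1.43 CPM in runs 2 and 4, and at 0 to 1.51 CPM in PparDA control libraries. Pnp2, a purine nucleoside phosphorylase, was at 33.3 and 51.6 CPM against 1.54 and 0 CPM, and at 0 to 1.65 CPM in PparDA. Slc7a7, a cationic amino acid transporter, was at 33.3 and 32.8 CPM against 7.72 and 7.13 CPM. These lie on chromosome 14, which held 9 of the 45 genes called in runs 1 and 3 (20%) but 3.66% of the genes tested. Apart from Rps24, they start between 34526603 (Ldb3) and 54369442 (Slc7a7).

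**Figure D5:**
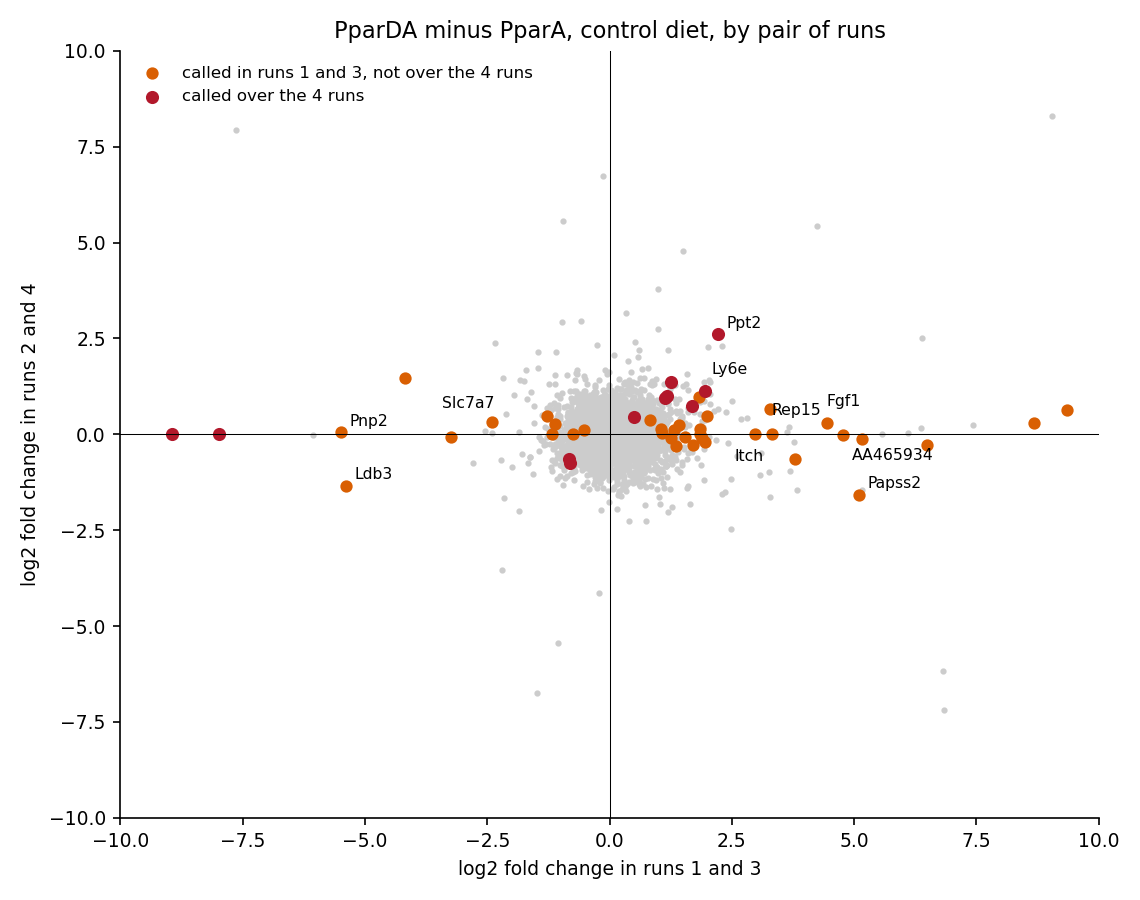
Log2 fold change of PparDA minus PparA in runs 1 and 3 (horizontal) and in runs 2 and 4 (vertical) for each tested gene. Fgf1, Itch, Rep15, AA465934, Pnp2 and Ldb3 lie far from 0 along the horizontal axis and nearer to 0 on the vertical, whereas Ppt2 and Ly6e are above 0 on both.

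Enterocyte genes Apoa1 and Sis and the secreted lectin Reg1 also differed between the pairs. Apoa1, the main protein of intestinal lipoproteins, was at 40.9 and 10.9 CPM in PparA of runs 1 and 3, at 692 and 310 CPM in runs 2 and 4, and at 99.2 to 211 CPM in PparDA. Sis, sucrase-isomaltase, was at 4.54 and 3.13 CPM against 198 and 57.1 CPM, with 49.8 to 80.7 CPM in PparDA. Reg1 was at 51.5 and 15.6 CPM against 641 and 322 CPM, with 48.4 to 222 CPM in PparDA.

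Over all genes, 52 (0.886%) separated the 8 PparDA libraries of both diets from the 16 WT and PparD libraries without overlap. On a log2(CPM + 5) scale, PparA libraries 5 and 21 were nearer to PparDA in 20 and 18 of them, and libraries 13 and 29 in 46 and 47. On high-fat diet the PparA libraries of runs 1 and 3 were nearer in 14 and 18, and those of runs 2 and 4 in 52 and 50. Cyb5r3 did not follow the pairs. This gene for a cytochrome b5 reductase, 2.58 Mb from Ppara on chromosome 15, was at 295, 293, 288 and 254 CPM in PparA and 295 to 320 CPM in PparDA control libraries, against 62.9 to 99.9 CPM in WT and PparD. What sets the PparA libraries of the 2 pairs apart was not tested, and sex and any other difference between the pairs of runs cannot be told apart.

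Without PparA libraries 5 and 21 of runs 1 and 3, 4 genes were called, including Ppt2, Rpl28 and Rps26, and without libraries 13 and 29 of runs 2 and 4, 21 were called. Without any filter on low counts 128 were called, and in the 8 libraries alone with no block 2 were, Ppt2 and Rps24.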

How the data were processed

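Polyadenylated RNA from sorted intestinal stem cells was counted by 3' digital gene expression. The authors deposited estimated counts per gene, rounded to whole numbers in the file, and per the submitters' processing notes Salmon 1.1.0, R 4.0.2 and edgeR 3.30.2 were used with mm10. Of 54418 identifiers, 54166 matched the GENCODE M21 annotation (252 did not), which supplied symbols and GRCm38 coordinates. Each column name matches a group but no single sample, so libraries are named by their column number. The fit used all 32 libraries with R 4.3.3 and edgeR 4.0.16: genes passing filterByExpr (minimum count 10, minimum total 15), TMM scaling, group plus run of 8 libraries as a block, the quasi-likelihood test, Benjamini-Hochberg adjustment over all 5872 genes and a threshold of 0.05. Errors of log2 fold changes are SE and those of levels SD (n = 4). Tested genes held 97.1 to 97.5% of counts, and the biological coefficient of variation common to all genes was 16.8%.

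The runs were checked as pairs: deviations from group means of PparA and PparDA libraries of the same run correlated at 0.237, 0.115, 0.219 and 0.209, and 31 of 32 libraries matched best within their own run. What a run stands for is not given in the sources used here. Named genes were called genes, pseudogenes included, a fixed set of PPAR, stem cell and ribosomal genes, and the smallest p of each list. Genes described for the pairs of runs are said to be chosen after their values were seen. Further list members, such as Tyms, Cdk1, Cpt2, Slc25a20 and Lyz1, are named as examples outside these rules. Members and lists were chosen with earlier results of these data known. Nothing in the labels ties the 4 libraries of a group to different animals. By Xist and Ddx3y each group holds libraries of both sexes, so of more than 1 animal, but the number of animals is not known. The p-values therefore measure only the spread between these samples, which may in part be technical. Alternatives were other scalings, filters, blocks and sets of libraries, DESeq2 1.42.0 and voom in limma 3.58.1. Scripts were tested on simulated data. Counts cover all genes tested, and values of a few genes are not reported here.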

Additional observations from a re-analysis of the deposited data

Results flagged for a closer look

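In 132 groups of 4 values, 12 held a library far from the other 3, where a rate of 1 in 20 gives 6.6. That rate holds for independent, normally distributed values. Here lists share genes, and flagged PparA values include Pdk4 at 0 or 1 count and Ppt2 at 4 to 6 counts. No conclusion is therefore drawn from 12 against 6.6. Of the 12, 4 were library 5, the PparA library of run 1: Cpt1a at 42.4 CPM, Angptl4 at 13.6, Rpl31-ps8 at 183 and Gm4294 at 93.9. In PparA library 21, Ppt2 stood high at 9.38 CPM, Ppard low at 1.56 and Pdk4 at 0. In PparA library 13, Acadvl was low at 51 CPM and the summed leukocyte markers high at 98.9 CPM, and in library 29 Ube2c was high at 38.5 CPM. In PparDA library 15, Rps4x was low at 8430 CPM and the summed fatty acid synthesis genes high at 370 CPM.

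Between diets the PparDA against PparA contrast differed for 20 genes, among them Rpl28 (log2 -2.563, high-fat minus control), Rps4x (-1.979) and Rpl31-ps8 (16.046, which depends on the prior count). Between the Ppara-null and the Ppara-intact background the Ppard-fl/fl contrast differed for 7 genes, among them Add3 (1.512), Rpl28 (1.001), Rps24 (-1.337), Rps26 (-1.142), Rps26-ps1 (-1.1) and Rpl31-ps8 (-8.086, again dependent on the prior count).

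Between runs 2 and 4 and runs 1 and 3 the control-diet contrast differed for 11 genes. The log2 differences were -4.146 for Fgf1, -2.958 for Itch, -4.79 for AA465934, -1.848 for Tmem69, -3.316 for Rep15, -2.148 for Phgr1, -1.985 for Ccdc62, -4.964 for Reg1, -6.679 for Papss2, -3.877 for Apoa1 and -4.429 for Sis. The cause was not tested.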

How the results depend on the processing

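With no replicate block 8 of the 11 genes were called, with median-ratio or upper-quartile scaling 11, with DESeq2 10, with voom 14, with a minimum count of 30 9 and with a robust prior 12. Leaving out 1 library gave 8 to 13 calls and leaving out 1 run 8 to 11. The count moved to 2 in the 8 libraries with no block, to 128 with no filter, to 54 in runs 1 and 3 alone and 3 in runs 2 and 4 alone, and, in settings chosen after seeing the data, to 4 without PparA libraries 5 and 21 and 21 without 13 and 29. Also chosen after seeing the data, no replicate block gave 16 calls for PparDA against PparA on high-fat diet, 12 for PparD against WT, 8 for the difference between diets and 4 for the difference by Ppara-null. Ppt2 kept its call in every alternative that tested it; a minimum count of 30 left it untested. Directions turned, with no call, for Fabp1 (0.292 in the 8 libraries with the block, 0.364 with voom, 1.445 in runs 1 and 3, 1.426 without 13 and 29, and -0.628 to 0.84 without 1 library or run), and for Cpt1a (-0.245 in runs 1 and 3, -0.155 without 13 and 29, and -0.126 to 0.397 without 1 library or run). In runs 1 and 3, Hadha was -0.101, Lgr5 0.01 and Anpep 0.492. In runs 2 and 4, H2-DMa was 0.02 and Pecam1 -0.015. Without 5 and 21, Acadvl was 0.085, Ascl2 0.031, H2-DMa 0.739 and Pecam1 -0.003, and without 13 and 29 Anpep was 0.312 and Irf1 0.05. Leaving out 1 library or run gave -0.139 to 0.002 for Olfm4 and -7.453 to 0.244 for Gm4294. The cause was not tested. At 612672 to 695583 counts a library, genes near the limit of 3 counts rest on few reads.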
